A study of Homo sapiens with 17 samples.

Results

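The histone genes measured here were 56 of the 19775 genes on the arrays. A gene was a member if the array's annotation, or the current RefSeq record of the same gene, gave a probe set a single symbol of the linker histone H1 or the core histones H2A, H2B, H3 and H4. Pseudogenes and 1 antisense gene (H1-10-AS1) were left out. The 56 comprise 41 genes of the replication-dependent, clustered type, 8 variant genes (H1-10, H2AX, H2AZ1, H2AZ2, H2AJ, MACROH2A1, MACROH2A2 and H3-3A) and 7 genes known mainly from testis or oocytes. By family there were 9 H1, 15 H2A, 15 H2B, 9 H3 and 8 H4 genes, and 40 of the 56 lie on chromosome 6. Each gene was read through its probe set with the highest mean over the arrays: 44 genes had 1 such probe set and 12 had several.

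The cells were L363, a human multiple myeloma line, treated for 48 hours. MS275, an inhibitor of class I histone deacetylases, was given alone at 0.5 uM on 3 arrays, and rapamycin, an inhibitor of the kinase mTOR, alone at 1 nM or 10 nM on 3 arrays each. Both drugs were given together as the 1 nM combination (0.5 uM MS275 with 1 nM rapamycin, 3 arrays) and the 10 nM combination (0.5 uM MS275 with 10 nM rapamycin, 2 arrays), and 3 control arrays had no drug. Per the series' text, each group had 3 replicates and 1 array failed quality control, and the 10 nM combination is the group with 2. All groups are 1 cell line, and the labels do not say whether replicates were separate cultures, so the p-values measure the spread between these arrays, which may be technical.

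Histones are the proteins that DNA wraps around in chromatin. The clustered genes are transcribed in S phase, when DNA is copied. Their main transcripts carry no poly(A) tail but end in a stem-loop bound by SLBP, while most variant genes are transcribed through the cell cycle into ordinary polyadenylated mRNA. H2AX is known to make both a stem-loop transcript and a longer polyadenylated one. Some clustered genes, among them H2BC12 (formerly HIST1H2BK), H2BC5, H2BC21, H2AC6 and H4C8, are known to make polyadenylated transcripts as well, mostly in cells that have left the cycle. The RNA was labelled through antisense RNA amplification, per the labels' protocols, in which copying starts at poly(A) tails. Values of clustered genes are therefore readings of polyadenylated histone RNA and not of total histone RNA. Near-identical copies of these genes can share probes: 29 more probe sets named a histone gene among several symbols and were not used, H3-3B has only such probe sets, and even a singly named probe set may read RNA of a paralog.

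Promoters of 53 of the 56 genes were found in RefSeq (GRCh38.p14). The 250 bases before the first listed start of each gene were searched for 3 motifs on both strands. That start is not always the outermost. The window of MACROH2A1 (chr5:135399232-135399481) lies inside the gene, and that of H2AZ2 (chr7:44848088-44848337) overlaps it. The windows of 4 genes are shown, picked for their observed signal. H2BC12 and H4C8 had high signal on the arrays with rapamycin alone, and H2AC6 and H2AX low signal on the arrays with MS275. H4C8 and H2AC6 were called in no comparison of the main fit (limma, adjusted p under 0.05). Each is given 5′ to 3′ on the gene's strand, and capitals mark the octamer ATTTGCAT (or ATGCAAAT), the CCAAT box (CCAAT or ATTGG) and the TATA box TATAAA (or TTTATA), where neighbouring or overlapping matches form 1 run. The windows lie at chr6:27146859-27147108 (H2BC12, minus strand), chr6:26285535-26285784 (H4C8, minus strand), chr6:26123922-26124171 (H2AC6, plus strand) and chr11:119095466-119095715 (H2AX, minus strand).
H2BC12: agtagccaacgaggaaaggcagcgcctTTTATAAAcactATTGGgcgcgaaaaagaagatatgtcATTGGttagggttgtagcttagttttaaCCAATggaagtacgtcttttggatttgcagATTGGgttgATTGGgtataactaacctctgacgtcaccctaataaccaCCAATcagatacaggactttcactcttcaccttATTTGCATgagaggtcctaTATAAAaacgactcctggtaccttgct
H4C8: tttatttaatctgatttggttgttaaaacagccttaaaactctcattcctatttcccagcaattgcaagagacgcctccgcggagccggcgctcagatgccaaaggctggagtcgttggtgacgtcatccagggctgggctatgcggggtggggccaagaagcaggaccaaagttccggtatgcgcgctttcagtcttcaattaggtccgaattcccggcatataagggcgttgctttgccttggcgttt
H2AC6: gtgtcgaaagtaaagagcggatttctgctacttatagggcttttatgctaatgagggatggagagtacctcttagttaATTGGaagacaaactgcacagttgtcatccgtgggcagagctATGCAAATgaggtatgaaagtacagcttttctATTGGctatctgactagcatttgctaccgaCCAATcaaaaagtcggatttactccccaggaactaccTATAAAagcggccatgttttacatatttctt
H2AX: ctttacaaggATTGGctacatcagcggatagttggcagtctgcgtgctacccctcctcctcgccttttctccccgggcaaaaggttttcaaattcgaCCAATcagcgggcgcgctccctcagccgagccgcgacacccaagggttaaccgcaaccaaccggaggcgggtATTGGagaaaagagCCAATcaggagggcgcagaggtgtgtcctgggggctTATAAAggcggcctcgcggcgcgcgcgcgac

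H2BC12 held 1 octamer, 6 CCAAT and 3 TATA matches. H2AC6 held 1 octamer, 3 CCAAT and 1 TATA match, H2AX held 4 CCAAT and 1 TATA match and no octamer, and H4C8 held none of these letters. Over the clustered genes with a window the octamer occurred in 15 of 38 (39.5%), against 454 of all 27305 genes with a window (1.66%). All 15 were H2A or H2B genes: 6 of 8 clustered H2A and 9 of 12 clustered H2B windows held it, and none of the 5 H1, 6 H3 and 7 H4 windows or of the 8 variant windows. CCAAT stood in 33 of 38 clustered windows (86.8%), against 33.0% of all genes, and TATAAA in 26 of 38 (68.4%), against 11.1%. The windows are not independent. Those of 4 H2A and H2B pairs overlap by 193 to 245 bases, so some stretches of DNA are counted for both genes. Both members of the pairs H2AC6 and H2BC4, H2AC14 and H2BC14, and H2AC17 and H2BC17 are counted as holding the octamer. The 2 genes with the highest rapamycin changes, H2BC12 and H4C8, thus differ in all 3 motifs, and a letter match does not show binding.

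As a check of the labelled cell type, the 8 plasma cell markers had mean log2 signals of 8.09 (CD38) to 12.59 (MZB1). T cell markers had 3.89 to 5.62, myeloid markers 2.79 to 5.68, red cell markers 5.18 to 6.40, and fibroblast and epithelial markers 2.72 to 6.92. Different probe sets do not share 1 scale, so no order is drawn between these lists. Array medians ran from 5.09 to 5.36 on the log2 scale. 2 arrays, control replicate 1 and 1 nM combination replicate 1, were narrower in spread (SD over probe sets 2.14 and 2.15, against 2.27 to 2.37 on the other 15 arrays). Each call of a histone gene that changes without them is given both ways. Results of the gene lists, medians and counts of genes whose arrays do not overlap were not redone without them. The S phase and division markers (24 of 25 measured) had negative median changes in all 5 treatments. Relative to control, 4 of them fell with MS275, 2 with 1 nM rapamycin, 4 with 10 nM rapamycin and 15 with each combination, and none rose. Over all genes limma called 1.49%, 0.101%, 0.435%, 2.7% and 3.3% in these comparisons. Their mean log2 signal per array was 8.67 to 8.99 with MS275, 8.56 to 8.95 and 8.12 to 8.78 with 1 and 10 nM rapamycin, 7.22 to 7.98 and 7.47 to 7.62 with the 1 and 10 nM combination, and 8.54 to 9.82 in control.

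The first comparison set rapamycin alone against no drug. H2BC12, an H2B gene at chr6:27138293-27146858, rose at both doses, and it was the only histone gene of the 56 past the threshold (limma, Benjamini-Hochberg adjusted p under 0.05 over all genes). Its log2 signal was 9.005, 8.38 and 9.68 with 1 nM rapamycin, 9.14, 8.55 and 9.40 with 10 nM, and 6.60, 7.05 and 6.71 in control. Every rapamycin array was above every control array. The log2 change was 2.23 ± 0.34 (SE; 4.71-fold, limma adjusted p = 0.0284) at 1 nM and 2.24 ± 0.34 (4.74-fold, adjusted p = 0.0142) at 10 nM. So 1 of 56 histone genes was called at each dose, where 0.101% of all genes were called at 1 nM and 0.435% at 10 nM, or 0.0202% and 0.0657% as higher. The doses did not separate: the 10 nM level minus the 1 nM level was 0.01 (95% interval -0.73 to 0.75).

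With MS275 present the H2BC12 level was near control. It was 6.65, 6.90 and 7.49 in the 1 nM combination, 7.24 and 7.94 with the 10 nM combination, and 7.18, 6.76 and 7.54 with MS275 alone. Only the 10 nM combination lay above all control arrays, at a change of 0.81 ± 0.39 (SE, adjusted p = 0.369), and MS275 alone (0.37) and the 1 nM combination (0.22) overlapped control. H2BC12 fell in the 1 nM combination relative to 1 nM rapamycin, by 2.01 ± 0.34 on the log2 scale (4.03-fold, limma adjusted p = 0.0107). At 10 nM the same difference was -1.44 ± 0.39 (adjusted p = 0.151), with no overlap of the arrays. The interaction, which is the combination's change less the sum of both single-drug changes, was -2.38 ± 0.49 at 1 nM (SE, limma adjusted p = 0.682) and -1.81 ± 0.52 at 10 nM (adjusted p = 1). None of the 56 genes, nor any of the 19775 (0%), passed the adjusted threshold for either interaction in limma. At an unadjusted p under 0.05 there were 6 and 4 histone genes, among 916 and 194 genes in all.

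Where only the groups compared were fitted, which leaves fewer arrays to estimate the spread, H2BC12 passed in none of its 3 comparisons (adjusted p 0.509, 0.375 and 0.105), and of the 11 changes called among the histone genes 1 passed (H1-10 in the 1 nM combination against 1 nM rapamycin, adjusted p = 0.0375). The call at 1 nM rapamycin rested on several arrays. It was lost when control replicate 1, control replicate 3, 1 nM rapamycin replicate 1 or 1 nM rapamycin replicate 3 was left out, with changes of 1.91 to 2.24 and limma adjusted p from 0.0665 to 0.183, and without both narrow arrays (2.14, adjusted p = 0.0528). At 10 nM, leaving out control replicate 3 or the 10 nM rapamycin replicates 1 or 3 ended the call (changes of 2.06 to 2.20, adjusted p 0.0569 to 0.102). The fall in the 1 nM combination was lost without 1 nM rapamycin replicate 3 or 1 nM combination replicate 1 (changes of -1.68 to -1.83, adjusted p 0.052 to 0.0588).

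H4C8, an H4 gene at chr6:26285126-26285534, had the second highest change with rapamycin, and is named here after its values were seen. Its log2 signal was 5.71, 5.68 and 7.11 with 1 nM rapamycin, 6.26, 5.79 and 7.24 with 10 nM, and 4.79, 4.39 and 4.63 in control. Arrays did not overlap, but the changes of 1.57 ± 0.38 (SE, limma adjusted p = 0.145) and 1.83 ± 0.38 (adjusted p = 0.0516) missed the threshold. In the combinations it stood at 4.73, 4.35 and 4.89 (1 nM) and at 4.91 on both arrays (10 nM). These were 1.51 and 1.52 below rapamycin alone at the same dose (limma adjusted p = 0.0716 and 0.177). Its second probe set gave smaller changes, 0.51 and 0.67 with 1 and 10 nM rapamycin. Same-numbered arrays of control and 1 nM rapamycin deviated together over all genes, as did those of control with MS275 and with the 1 nM combination, and of the 1 nM combination with MS275 and with 1 nM rapamycin. With the replicate number as a block, H4C8 passed at 1 nM (adjusted p = 0.0267), so that 2 histone genes were called there (112 of all genes under the block, against 20 without it). At 10 nM it passed with quantile normalization (adjusted p = 0.0378), array weights (0.00894), genes with a mean under 4 left out, and the block (0.00709), though same-numbered arrays of control and 10 nM rapamycin did not all deviate together. It did not pass without the 2 narrow arrays (0.0828).

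**Figure D1:**
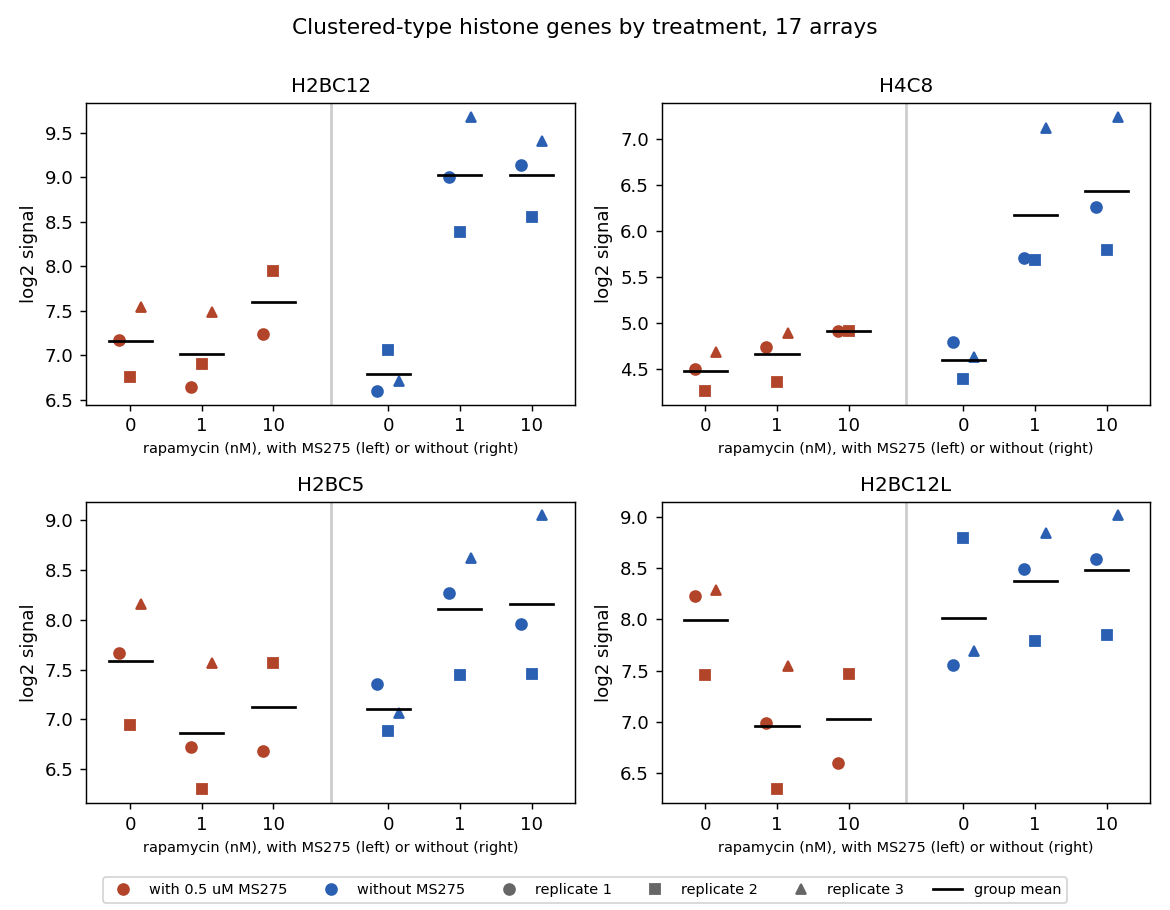
Log2 signal of H2BC12, H4C8, H2BC5 and H2BC12L on each of the 17 arrays (points, shape by replicate number) against the rapamycin dose in nM, with 0.5 uM MS275 on the left of each panel and without it on the right; lines are group means. H2BC12 stood at 8.38 to 9.68 on the 6 arrays with rapamycin alone, and at 7.94 or less on every other array.

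Other H2B genes did not pass with rapamycin. H2BC5 read 8.27, 7.45 and 8.62 with 1 nM rapamycin, 7.95, 7.46 and 9.05 with 10 nM and 7.36, 6.88 and 7.06 in control, changes of 1.01 ± 0.45 (SE) and 1.05 ± 0.45 (limma adjusted p = 0.61 and 0.658). Its second probe set read 0.01 and -0.12 for the same changes, so the 2 probe sets of H2BC5 disagree. H2BC12L, a close H2B copy on chromosome 21, had changes of 0.36 and 0.47 with rapamycin, and its combination arrays all lay below control, by under 0.01 at the closest. Those were 6.99, 6.34 and 7.55 in the 1 nM combination, 6.60 and 7.46 with the 10 nM combination, and 7.55, 8.79 and 7.69 in control (changes of -1.05 and -0.98, adjusted p = 0.298 and 0.391).

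H3C7, an H3 gene, had the lowest change of the 56 at both rapamycin doses. It read 4.21, 4.07 and 4.50 with 1 nM rapamycin, 3.97, 3.65 and 4.55 with 10 nM, and 5.51, 6.26 and 4.94 in control. Changes were -1.31 ± 0.45 (SE) and -1.51 ± 0.45 (limma adjusted p = 0.417 and 0.246), with no overlap of arrays. With the combinations they were -1.29 ± 0.45 and -1.66 ± 0.50 (adjusted p = 0.188 and 0.101), while MS275 alone, at 5.98, 4.47 and 5.87, overlapped control (-0.13 ± 0.45). Over all 56 genes the median change was -0.20 with 1 nM and -0.22 with 10 nM rapamycin, against -0.12 and -0.07 over all genes. The arrays of rapamycin and control did not overlap for 10 histone genes at 1 nM (3 above, 7 below) and 11 at 10 nM (4 above, 7 below), where 12.2% and 8.05% of all genes did not overlap.

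MS275 against control asks what the deacetylase inhibitor changed by itself. H2AX, the H2A variant that is phosphorylated around DNA breaks, fell, and no other histone gene passed: 1 of 56, where limma called 1.49% of all genes and 0.455% as lower. H2AX lies at chr11:119093874-119095465. Its log2 signal was 8.72, 8.73 and 8.74 with MS275, against 9.41, 9.63 and 9.95 in control, a change of -0.93 ± 0.20 (SE; 1.91-fold lower, adjusted p = 0.0332). The S phase and division markers, 4 of 24 of them called lower with MS275, had a median change of -0.51, and their part in the H2AX change was not tested. In bulk RNA, fewer cells in S phase and less RNA per cell cannot be told apart.

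With rapamycin alone the H2AX group means lay between those of MS275 and control. The arrays read 8.85, 9.36 and 9.21 at 1 nM and 8.39, 8.93 and 8.99 at 10 nM, all below the control arrays. Neither passed (-0.52 ± 0.20, adjusted p = 0.508, and -0.90 ± 0.20, adjusted p = 0.0789, SE, limma). Without the 2 narrow arrays the 10 nM change was -1.02 (adjusted p = 0.0444), which passes.

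The combinations against control ask what both drugs did together. H2AX fell at both doses: it read 8.03, 8.23 and 8.30 in the 1 nM combination, and 7.88 and 7.57 in the higher-dose combination, below every array of the other groups. The changes were -1.47 ± 0.20 (SE; 2.78-fold lower, limma adjusted p = 0.00121) and -1.94 ± 0.23 (3.83-fold lower, adjusted p = 0.000371). Here 15 of 24 S phase and division markers were called lower in each combination, with median changes of -1.59 and -1.72; their part was not tested. By its brightest probe set, H2AX also fell in the 1 nM combination relative to 1 nM rapamycin (by 0.95 ± 0.20, adjusted p = 0.0331). It stood 1.04 ± 0.23 below rapamycin in the 10 nM pair (adjusted p = 0.0668, and 0.0297 without the 2 narrow arrays). Against MS275 alone the changes were -0.54 ± 0.20 and -1.01 ± 0.23 (adjusted p = 0.892 and 0.106). The interaction at 1 nM was -0.02 (95% interval -0.63 to 0.59).

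Array weights (-0.67, limma adjusted p = 0.081) and trend and robust variances (adjusted p = 0.0791) ended the H2AX call against 1 nM rapamycin, and trend and robust variances that with MS275 too (adjusted p = 0.0822). The falls of H2AX in both combinations kept their call with each of the 17 arrays left out in turn (-1.33 to -1.60 and -1.79 to -2.09). The MS275 fall did not: it was lost without control replicate 2 or 3, any MS275 replicate, or 1 nM rapamycin replicate 3 (changes of -0.79 to -0.95, limma adjusted p 0.0519 to 0.132). The fall from 1 nM rapamycin was lost without MS275 replicate 1 or 3, 1 nM rapamycin replicate 2 or 3, or any 1 nM combination replicate (adjusted p 0.0505 to 0.164), and without both narrow arrays (-0.87, adjusted p = 0.0674). H2AX has 4 probe sets, which disagree. In falling order of mean signal they changed by -0.93, -0.90, -0.12 and 0.14 with MS275. They changed by -1.47, -0.56, -0.365 and 0.035 in the 1 nM combination, and by -1.94, -1.34, -0.39 and 0.15 in the 10 nM combination. In the 1 nM combination against 1 nM rapamycin the second probe set was higher (6.03 against 5.71). So was the dimmest (4.94 against 4.83), while the third was lower (5.35 against 5.64). With the mean of the 4 probe sets in place of the brightest, the fall in the 10 nM combination passed (adjusted p = 0.00951), and those with MS275 (-0.45, adjusted p = 0.202), in the 1 nM combination (-0.59, adjusted p = 0.0528) and from 1 nM rapamycin (-0.20, adjusted p = 0.537) did not.

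H1-10, a replication-independent linker histone (chr3:129314771-129316286), rose in the 1 nM combination relative to 1 nM rapamycin. It read 11.51, 10.75 and 11.13 in the 1 nM combination, against 9.10, 8.37 and 8.69 with 1 nM rapamycin, a change of 2.41 ± 0.50 (SE; 5.32-fold, limma adjusted p = 0.0291). The 10 nM pair read 10.53 and 10.94 in the combination, against 8.64, 8.32 and 8.85 with 10 nM rapamycin (2.13 ± 0.56, adjusted p = 0.141). MS275 arrays read 11.58, 9.81 and 11.24 and control arrays 10.62, 8.38 and 9.54. Control spread widely (SD 1.12, n = 3) and overlapped MS275 (1.36 ± 0.50, adjusted p = 0.267). Changes from control were 1.62 ± 0.50 and 1.22 ± 0.56 in the 1 and 10 nM combination (adjusted p = 0.122 and 0.337). The call was lost without any single replicate of 1 nM rapamycin or of the 1 nM combination (2.22 to 2.60, adjusted p 0.05 to 0.136).

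So 3 of 56 histone genes were called between the 1 nM combination and 1 nM rapamycin, H1-10 higher and H2BC12 and H2AX lower, where limma called 1.23% of all genes, 0.936% as higher and 0.293% as lower. No histone gene was called between the 10 nM combination and 10 nM rapamycin (0.435% of all genes called; 9 histone genes and 1452 of all genes at an unadjusted p under 0.05). Without the 2 narrow arrays 3 passed there, H2AX, H2BC21 (-1.45, adjusted p = 0.0315) and H2BC4 (-0.66, adjusted p = 0.0427).

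**Figure D2:**
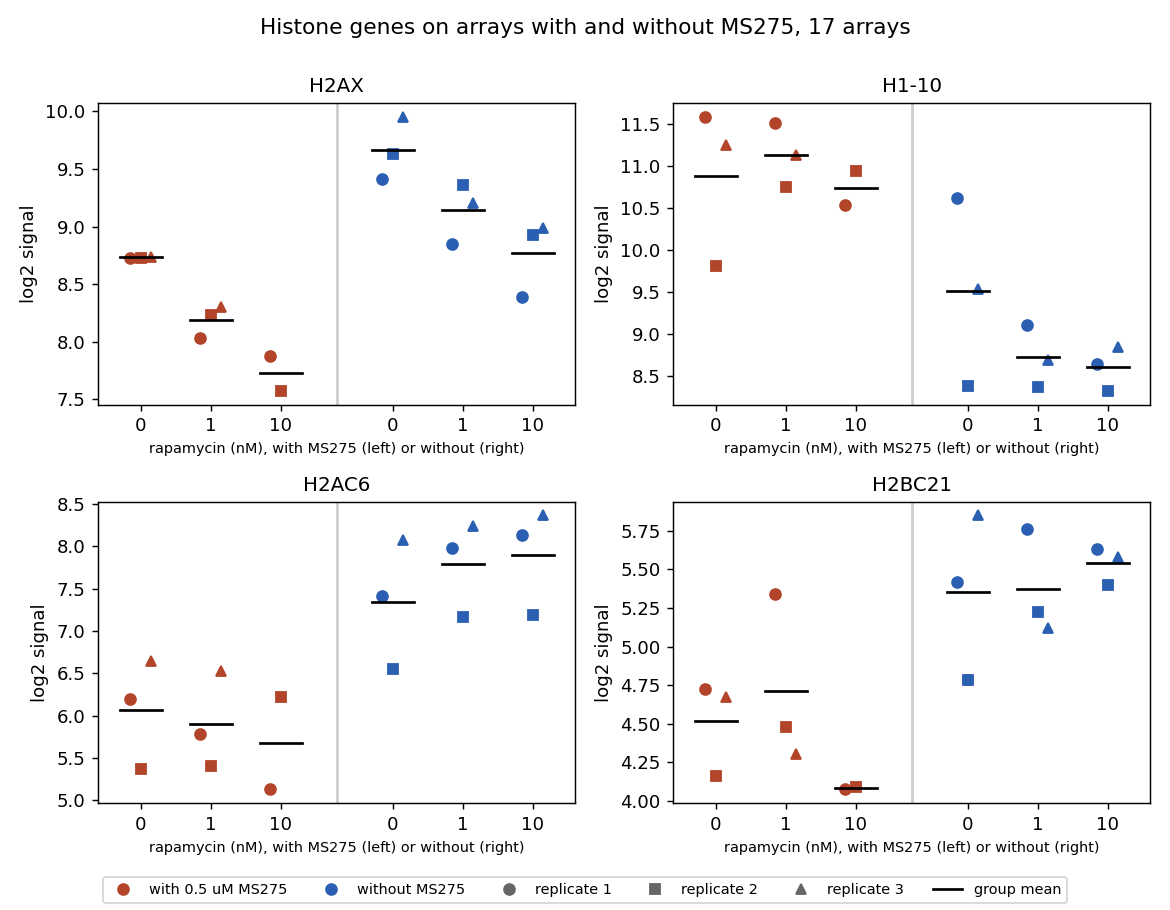
Log2 signal of H2AX, H1-10, H2AC6 and H2BC21 on each of the 17 arrays (points, shape by replicate number) against the rapamycin dose in nM, with 0.5 uM MS275 on the left of each panel and without it on the right; lines are group means. H2AX stood at 7.57 to 8.74 on the arrays with MS275, and at 8.39 to 9.95 on the arrays without it.

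H2AC6, an H2A gene at chr6:26124172-26124690, had the lowest change of the 56 with MS275 but did not pass, and 1 of its MS275 arrays overlapped control. It read 6.20, 5.37 and 6.65 with MS275, 5.78, 5.40 and 6.53 in the 1 nM combination, 5.13 and 6.22 with the 10 nM combination, and 7.42, 6.56 and 8.08 in control. Changes were -1.28 ± 0.48 (SE), -1.44 ± 0.48 and -1.68 ± 0.54 (limma adjusted p = 0.289, 0.16 and 0.125). With rapamycin alone it read 7.99, 7.16 and 8.25 (1 nM) and 8.13, 7.19 and 8.37 (10 nM). The combinations were 1.89 ± 0.48 and 2.22 ± 0.54 below those (adjusted p = 0.0777 and 0.104). In each group of 3 its replicate 2 was lowest and its replicate 3 highest. With the replicate number as a block it passed with MS275 (adjusted p = 0.0417), in the 1 nM combination (0.0159) and between the 1 nM combination and 1 nM rapamycin (0.00615).

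H2BC4 shares its promoter with H2AC6: the genes run apart from each other and their 250-base windows overlap by 245 bases. H2BC4 fell in both combinations. Its probe set was dim, with 3.37, 3.48 and 3.52 in the 1 nM combination, 3.27 and 3.28 with the 10 nM combination, and 3.85, 4.16 and 4.23 in control. The changes were -0.62 ± 0.15 (SE; 1.54-fold lower, limma adjusted p = 0.0473) and -0.81 ± 0.17 (1.75-fold lower, adjusted p = 0.0202). MS275 alone, at 3.85, 3.59 and 3.96, overlapped control (-0.28, adjusted p = 0.586). The 1 nM call was lost when any 1 of 15 arrays was left out, and remained only without control replicate 1 or MS275 replicate 2 (adjusted p of the lost ones 0.0551 to 0.168). The 10 nM call was lost without control replicate 3 or either 10 nM combination replicate (adjusted p 0.0669 to 0.146), and quantile normalization ended both (adjusted p = 0.101 and 0.0918).

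H2AC14 fell in the 10 nM combination. It read 6.44 and 6.37 there, against 7.66, 7.76 and 7.19 in control, a change of -1.13 ± 0.28 (SE; 2.19-fold lower, limma adjusted p = 0.0403). The 1 nM combination, at 7.17, 6.47 and 6.86, lay below control too (-0.70 ± 0.25, adjusted p = 0.199). So did rapamycin alone (-0.67 and -0.74, adjusted p = 0.491 and 0.402), while MS275 was level with control (-0.01, 95% interval -0.54 to 0.53). The call was lost without control replicate 1 or 2, MS275 replicate 3, 1 nM rapamycin replicate 1 or 3, 1 nM combination replicate 3, 10 nM rapamycin replicate 1 or 3 or either 10 nM combination replicate (changes of -1.02 to -1.16, adjusted p 0.0514 to 0.232), and without both narrow arrays (-1.07, adjusted p = 0.0609). Quantile normalization (adjusted p = 0.0675), array weights (0.0732) and trend and robust variances (0.0613) also ended it. Its divergent partner H2BC14, whose window overlaps by 244 bases, changed by -0.53 in the 10 nM combination and did not pass.

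In total 2 of 56 histone genes were called in the 1 nM combination (H2AX and H2BC4) and 3 in the 10 nM combination (H2AX, H2BC4 and H2AC14), all lower, where limma called 2.7% and 3.3% of all genes, and 1.58% and 2.24% as lower. The lower S phase and division markers given with H2AX stand beside all of these calls, and their part was not tested. With the replicate number as a block the 1 nM combination had 4, with H2AC6 (-1.44, adjusted p = 0.0159) and H1-10 (1.62, adjusted p = 0.0241) added. The block called 1033 of all genes there, against 533. MS275 had 2 histone genes under the block (662 of all genes, against 295). The 1 nM combination against 1 nM rapamycin had 6 (559 of all genes, against 243), with H2AC6, H4C8 (-1.51, adjusted p = 0.00868) and H2BC4 (-0.66, adjusted p = 0.0359) added. Without the 2 narrow arrays MACROH2A1 passed as well, with MS275 (-0.70, adjusted p = 0.0276), the 1 nM combination (-0.82, adjusted p = 0.0152) and the 10 nM combination (-0.87, adjusted p = 0.00838).

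The combinations against MS275 ask what rapamycin added to the deacetylase inhibitor. No histone gene was called at either dose, where limma called 0.106% of all genes at 1 nM and 0.253% at 10 nM. At an unadjusted p under 0.05 there were 9 and 9 histone genes, and 878 and 890 genes in all. The smallest p of a histone gene at 1 nM belonged to H3C2, named after its values were seen. It read 3.65, 3.99 and 3.19 in the 1 nM combination, against 4.89, 4.71 and 4.54 with MS275 (-1.10 ± 0.21, SE, limma adjusted p = 0.0809). With the replicate block its adjusted p was 0.0308, and it was the only histone gene called there. Between the rapamycin doses limma called no gene at all (0%), alone or with MS275, and no histone gene had an unadjusted p under 0.05 in either comparison.

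H2BC21, an H2B gene on chromosome 1 named after its values were seen, lay below every control array on 7 of the 8 arrays with MS275. It read 4.73, 4.16 and 4.68 with MS275, 5.34, 4.48 and 4.31 in the 1 nM combination, 4.08 and 4.09 with the 10 nM combination, and 5.42, 4.79 and 5.85 in control. The changes were -0.83 ± 0.30, -0.64 ± 0.30 and -1.27 ± 0.34 (SE, limma adjusted p = 0.258, 0.397 and 0.0554). The 10 nM change passed with quantile normalization (adjusted p = 0.0487), array weights (0.00967), the 2 narrow arrays left out (-1.23, 0.0467) and the replicate block (0.0197), and the MS275 and 1 nM changes with array weights alone (0.0241 and 0.0285).

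MACROH2A1, an H2A variant with a large extra domain, was below every control array on all arrays with MS275. It read 10.51, 10.45 and 10.44 with MS275, 10.54, 10.50 and 10.18 in the 1 nM combination, 10.44 and 10.15 with the 10 nM combination, and 10.70, 11.01 and 11.32 in control. Changes were -0.54 ± 0.17 (SE), -0.60 ± 0.17 and -0.71 ± 0.19 (limma adjusted p = 0.157, 0.0801 and 0.0543). The gene has 7 probe sets, which differ. In falling order of mean signal, the next 4 changed by -0.57, -0.50, -0.52 and 0.00 with MS275. They changed by -0.82, -0.01, -0.50 and -0.04 in the 1 nM combination, and by -0.77, -0.35, -0.38 and -0.44 in the 10 nM combination. The 2 dimmest changed by 0.01 to 0.29. The mean of the 7 gave -0.29, -0.21 and -0.34 (adjusted p = 0.623, 0.767 and 0.475).

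H2AZ1 and H2AZ2, the H2A.Z variants found at promoters, spread widely between arrays. H2AZ1 read 11.22, 11.42 and 11.41 with MS275, 11.32, 11.26 and 11.42 with 1 nM rapamycin, 10.94, 10.89 and 10.13 with 10 nM rapamycin, 8.38, 10.96 and 10.70 in the 1 nM combination, 10.52 and 11.52 with the 10 nM combination, and 8.80, 11.94 and 10.56 in control. Its 2 lowest values are those of the 2 narrow arrays. H2AZ1 changes from control ran from -0.42 to 0.92 with limma adjusted p of 0.666 or more. H2AZ2 changed by -0.59 to 0.04 (adjusted p of 0.605 or more), but its second probe set was higher than control in all 5 treatments, by 1.36 with MS275 and 1.47 with 1 nM rapamycin. That second probe set read 6.81 on control replicate 1 and 7.29 on replicate 1 of the 1 nM combination, the narrow arrays, and 9.39 or more on all others.

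H3-3A, which encodes the replication-independent H3.3, read 6.57, 7.12 and 6.86 with MS275, 7.20, 7.46 and 7.53 with 1 nM rapamycin, 6.97, 7.47 and 7.52 with 10 nM rapamycin, 6.05, 6.24 and 6.98 in the 1 nM combination, 6.28 and 6.99 with the 10 nM combination, and 5.98, 7.74 and 6.85 in control. Control spanned the whole range of the other groups, and no change passed (-0.43 to 0.54, limma adjusted p of 0.657 or more). MACROH2A2 and H2AJ changed by -0.33 to 0.02 and -0.19 to -0.08 (adjusted p of 0.654 or more and 0.785 or more).

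**Figure D3:**
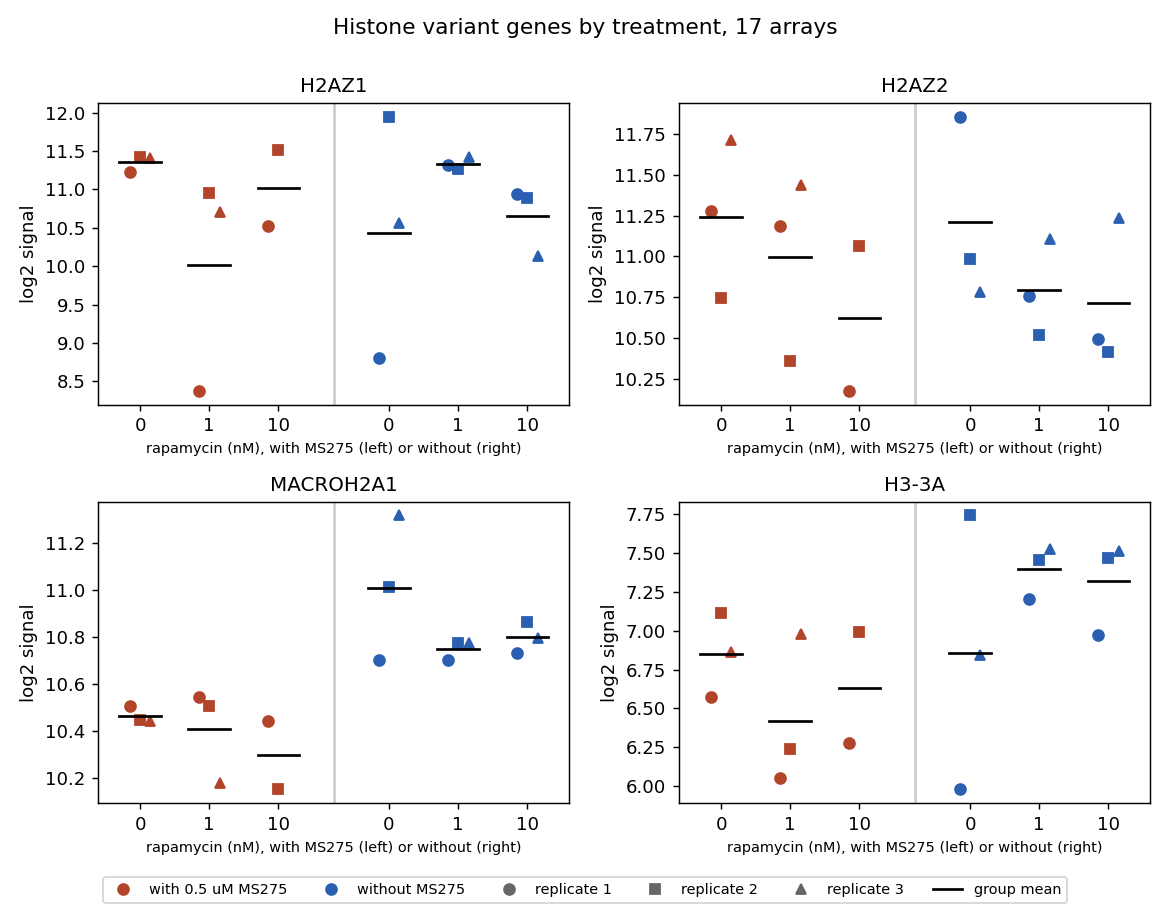
Log2 signal of the variant genes H2AZ1, H2AZ2, MACROH2A1 and H3-3A on each of the 17 arrays (points, shape by replicate number) against the rapamycin dose in nM, with 0.5 uM MS275 on the left of each panel and without it on the right; lines are group means. MACROH2A1 stood at 10.54 or less on every array with MS275, and at 10.70 or more on every array without it.

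None of the remaining genes passed in the comparisons with control. The lowest change among them was that of H2BC9 in the 10 nM combination (-1.06, limma adjusted p = 0.242). H2AC16 had -0.89 and -0.94 with 1 and 10 nM rapamycin, H3C8 -0.84 and -0.62 and H2BC17 -0.82 and -0.76 in the 1 and 10 nM combination, all with arrays that did not overlap control and adjusted p of 0.114 or more. These 4 are named after their values were seen. Of the 5 clustered H1 genes (H1-1 to H1-5), none passed in any comparison, with changes from control of -0.89 (H1-2, 10 nM combination) to 0.45 (H1-4, MS275). The 7 germline genes changed by -0.46 to 0.49. Among the H3 genes all 9 changes from control were negative in both combinations, and none passed. Their medians were -0.27 and -0.22 in the 1 and 10 nM combination, against 0.02 and -0.08 over all genes. H3 probe sets other than that of H3-3A had mean signals of 3.27 to 5.41. H4 genes other than H4C8 changed by -0.64 to 0.69. H4C11 and H2BC6, among the brightest clustered probe sets, changed by -0.48 to 0.69 and -0.53 to 0.01, with overlapping arrays in every comparison with control.

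Over all 56 genes the median change was -0.01 with MS275, -0.18 with the 1 nM combination and -0.28 with the 10 nM combination, against -0.05, 0.02 and -0.08 over all genes. In the 10 nM combination 45 of the 56 changes were negative. The median over all genes was negative there too (-0.08), and the share of all genes with a negative change was not counted. Arrays did not overlap with control for 4 histone genes with MS275 (1 above, 3 below; 11% of all genes), 12 in the 1 nM combination (2 above, 10 below; 10.6%) and 21 in the 10 nM combination (2 above, 19 below; 21.5%). The 10 nM combination has 2 arrays, so that more genes do not overlap there. The median change in the 10 nM combination was -0.33 over the clustered, -0.16 over the variant and -0.14 over the germline genes. Of the 56 genes, 40 had a mean signal below the median level of all genes (6.07), and signal over background was not assessed. On chromosome 6, the 23 clustered genes at chr6:26017032-26285534 had median changes of 0.03 with MS275 and -0.33 in the 10 nM combination. The 15 clustered genes at chr6:27132316-27893891 had medians of -0.14 and -0.30. Germline genes on chromosome 6 were left out of these medians.

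**Figure D4:**
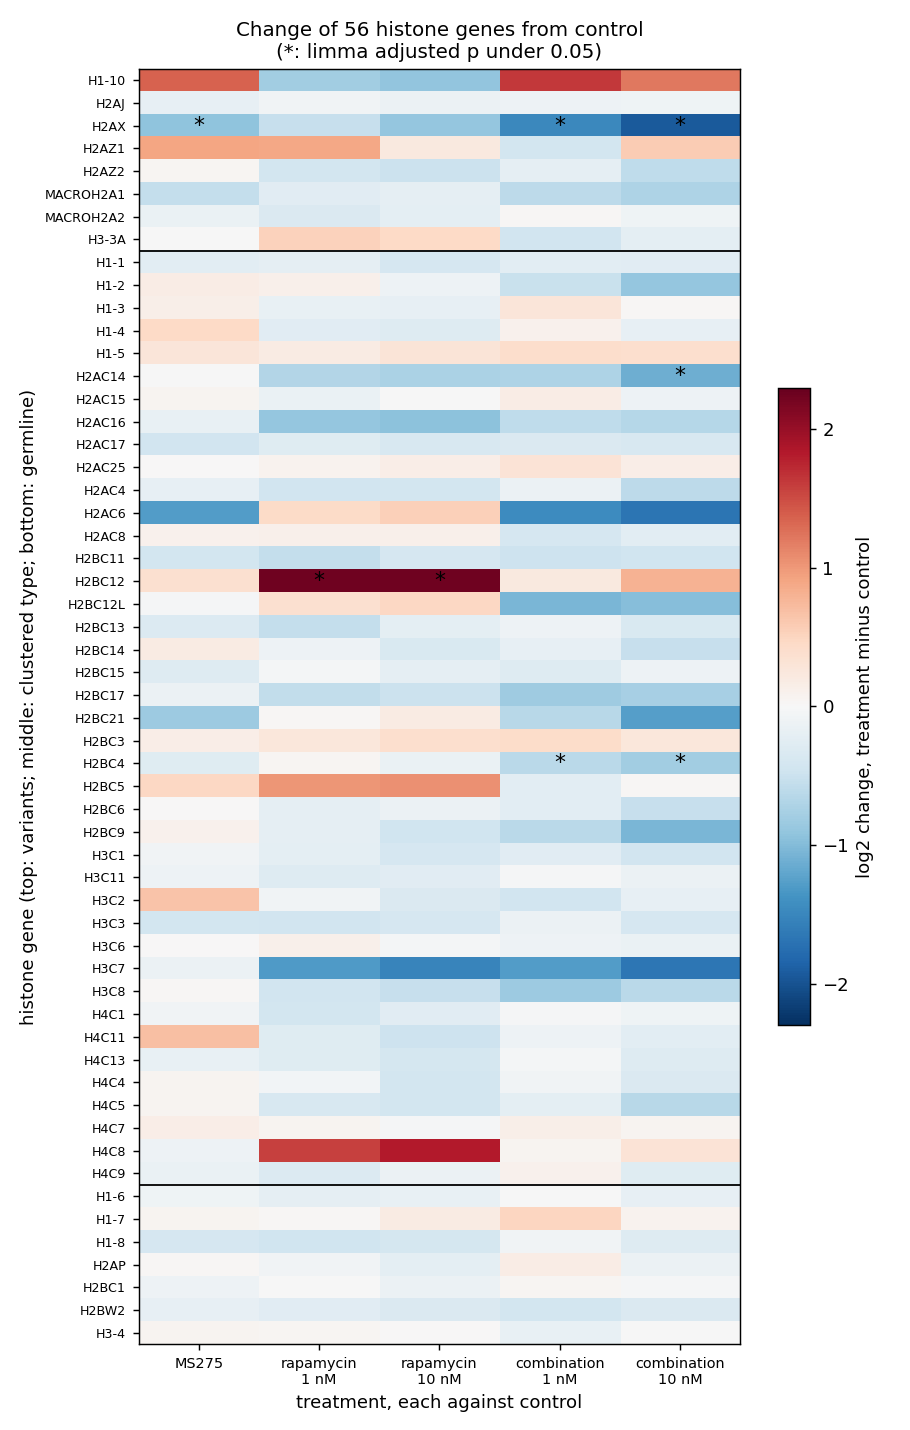
Log2 change of each of the 56 histone genes from control (colour, red higher and blue lower) in the 5 treatments (columns), with variant genes at the top, clustered-type genes in the middle and germline genes at the bottom; stars mark a limma adjusted p under 0.05. Stars stand at H2AX in 3 columns, H2BC12 and H2BC4 in 2 each and H2AC14 in 1.

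Clustered genes also varied with the replicate number. Replicate 2 was the lowest array for 29 of 41 clustered genes with MS275 (70.7%), 28 with 1 nM rapamycin (68.3%), 27 with 10 nM rapamycin (65.9%) and 28 in the 1 nM combination (68.3%). Over all genes the shares were 44.4%, 46.2%, 41.4% and 45.8%. In control it was the lowest for 15 of 41 (36.6%, against 46.3% of all genes).

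Genes that make and handle histones were read from lists. Of the 25 measured (of 26) genes for histone gene transcription and 3′ end processing, such as NPAT, SLBP and the CPSF subunits, limma called none against control in any treatment, with medians of -0.09 (MS275), 0.10 and 0.01 (1 and 10 nM rapamycin), -0.17 and -0.16 (1 and 10 nM combination). SLBP, named after its values were seen, averaged 9.46 with MS275, 9.75 and 9.47 with 1 and 10 nM rapamycin, 7.96 and 9.06 in the 1 and 10 nM combination, and 8.66 in control (SE of each change 0.86 or more, adjusted p of 0.671 or more). Of the 33 measured (of 35) histone chaperone and deposition genes none rose, while 2 fell with MS275, 0 and 1 with 1 and 10 nM rapamycin, and 6 and 7 in the 1 and 10 nM combination, where 0.455%, 0.0809%, 0.369%, 1.58% and 2.24% of all genes were called lower (medians -0.35, -0.15, -0.17, -0.57 and -0.46). HJURP, the chaperone of the centromeric H3 variant, had the lowest adjusted p of the list in each treatment, with changes of -1.47 ± 0.29 (SE, adjusted p = 0.0221) with MS275, -1.11 ± 0.29 (0.209) and -1.53 ± 0.29 (0.0382) with 1 and 10 nM rapamycin, and -1.93 ± 0.29 (0.00238) and -2.58 ± 0.33 (0.000639) with both drugs, at 1 and 10 nM. CHAF1B, a subunit of the chromatin assembly factor that deposits histones behind the replication fork, fell by 1.32 ± 0.25 (adjusted p = 0.00913) and 1.44 ± 0.28 (adjusted p = 0.0106) in the 1 and 10 nM combination. ASF1B, an H3-H4 chaperone, fell by 1.66 ± 0.33 (adjusted p = 0.0121) and 2.06 ± 0.36 (adjusted p = 0.0063). In each combination 15 of 24 S phase and division markers were called lower too, and their part in these falls was not tested. Calls of list genes were not followed through the alternative settings.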

How the data were processed

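Total RNA of L363 cells was measured on 17 oligonucleotide arrays. The authors deposited log2 signals per probe set, made with affy and RMA per the submitters' processing notes; their versions were not given in the sources used. They were used as deposited. Of 54613 probe sets, 41091 have 1 gene symbol in the array's annotation, 1801 several and 11721 none; 41037 of the singly named matched RefSeq (GRCh38.p14) by Entrez ID, which gave current symbols and coordinates. Each gene was represented by the brightest of its singly named probe sets. Detection calls and scanner files were not used here, and precision is limited by how few arrays there are: the median 95% interval of a log2 change was 0.54 to either side for groups of 3 and 0.6 with the group of 2.

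Group means of all 17 arrays were fitted in 1 model with limma 3.58.1 (lmFit, eBayes, R 4.3.3) to all 19775 genes. There were 13 comparisons, each with Benjamini-Hochberg adjustment across the 19775 genes (threshold 0.05). The fit was tried on simulated data for the MS275 comparison. That simulation had independent noise on each array, so it does not cover arrays that deviate together. Changes carry the fit's SE. No value is centred. The named genes are histone genes past the threshold, all measured variants, H2BC12, the 5 clustered genes with the highest mean, the extreme change in each direction per comparison with control, and the 4 list members with the smallest adjusted p; others are said to be named after their values were seen. The members and lists were chosen with earlier results of these data known. Comparisons with control share the control arrays. Replicate numbers recur in the labels. Same-numbered arrays correlated in their deviations from group means (every r over 0.1, from 0.29 to 0.85) in 7 of 10 pairs of groups with 3 numbers. Between the 10 nM combination and 1 nM rapamycin r was as low as -0.74. Arrays with different numbers were not compared, so this check does not establish a pairing. The block rests on the numbers and on these data alone. The alternatives were quantile normalization, low-signal filters at 4 and 6, the mean of a gene's probe sets, array weights, the narrow arrays left out, the replicate block, only the compared groups, trend and robust variances, and each array left out.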

Additional observations from a re-analysis of the deposited data

How the results depend on the processing

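Of the 11 gene changes past the threshold, 2 (H2AX in both combinations) kept their call with each array left out, and 0 kept it under every alternative in which the gene was tested (24 for H2BC4, which the low-signal filters leave out, and 26 for the others); H2AX in the 10 nM combination lost it only with the compared groups alone. Counts of histone genes called are given here in the order MS275, 1 nM rapamycin, 10 nM rapamycin, 1 nM combination and 10 nM combination against control. With the replicate block they were 2, 2, 3, 4 and 5, with array weights 6, 10, 8, 6 and 5, and with only the compared groups 0, 0, 0, 0 and 0, against 1, 1, 1, 2 and 3 as reported. Without the 2 narrow arrays they were 2, 0, 2, 3 and 4. In the 10 nM combination quantile normalization, both filters and trend and robust variances gave 2 each. The block counts of the 10 nM groups against control and of the 10 nM combination against 10 nM rapamycin rest on same-numbered arrays that did not all correlate. The mean of probe sets gave 0 for MS275 and 1 for the 1 nM combination, trend and robust variances 0 for MS275, quantile normalization 3 for 10 nM rapamycin and 1 for the 1 nM combination, the filter at 4 gave 2 and 1 for these, and the filter at 6 gave 1 for the 1 nM combination. For the 1 nM combination against MS275 the block and the weights gave 1 each (reported 0); against 1 nM rapamycin they gave 6 and 5, and the compared groups alone 1 (reported 3). For the 10 nM combination against 10 nM rapamycin (reported 0) quantile normalization gave 1, weights 4, the narrow arrays left out 3 and the block 4. Leaving out 1 array gave 0 to 2, 0 to 1, 0 to 2, 1 to 4 and 1 to 5 against control, 0 to 4 for the 1 nM combination against 1 nM rapamycin and 0 to 1 for the 10 nM combination against 10 nM rapamycin. H2BC1 with 1 nM rapamycin turned from -0.01 to 0.35 with array weights. The causes were not tested.

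Over all genes the block called 662, 112, 227, 1033 and 1343 against control and the weights 1504, 2804, 1951, 1400 and 1555, against 295, 20, 86, 533 and 652 as reported; other settings gave 0 to 938, and leaving out 1 array 0 to 806. With the compared groups alone 9 genes were called for MS275 and 0 for the other 4. No histone gene was called by the block in the 10 nM combination against MS275, between doses or for the interactions. Signal over background was not assessed, which matters most for dim probe sets such as that of H2BC4, and the median 95% interval reached 0.54 to 0.6 log2 units to either side.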
